A study of Mus musculus with 16 samples.

Results

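Embryonic stem cells (ESCs) carrying MBD3a without its coiled coil were compared with cells carrying no MBD3. The comparison used 6 of the 16 arrays of the series: 2 arrays of the empty vector line (Empty) and 4 arrays of the lines given MBD3a without the coiled coil (deltaCC) or without both the methyl-CpG-binding domain and the coiled coil (deltaMBD&CC; the labels also spell these deltaC.C. and delataMBD&C.C.). All 3 lines derive from EBRTcH3, a male mouse ESC line of the 129SV strain, and all carry the Mbd3abc knockout, which removes every form of MBD3, plus a stably introduced vector. Each line was sampled once with leukaemia inhibitory factor (LIF) and once after 12 days without it. The other 10 arrays hold EBRTcH3 itself and knockout cells with MBD3a, MBD3b, MBD3c or MBD3a without the methyl-CpG-binding domain (deltaMBD), and serve here only as a scale. The labels name 1 line per construct and no second culture, so the 2 arrays of a line share that line and p-values measure the spread between these arrays. The question was whether MBD3a that lacks the coiled coil leaves any mark on gene expression beyond the absence of MBD3. Genes were described mainly where both construct lines lay on the same side of Empty.

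MBD3 is a core part of NuRD, a complex that remodels nucleosomes and removes histone acetylation, and it links the deacetylase module to the CHD remodellers. Its coiled coil lies towards the C-terminal end and pairs with the coiled coil of the GATAD2 subunits, which recruit the remodeller. ESCs that lack MBD3 keep self-renewing and commit poorly to lineages when LIF, which acts through STAT3, is withdrawn.

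The arrays of the comparison were closely alike. Over all probe sets with values, medians of log2 signal ran from 4.78 to 4.83 and correlations between pairs of arrays from 0.986 to 0.994. All 8 ESC markers examined, among them Pou5f1, Sox2 and Nanog, were well above the array's 40th percentile (4.30 to 4.36), with a lowest value of 9.80. Their mean was 11.5 to 11.6 in Empty and 11.4 to 11.7 in the construct lines. Of 8 markers of fibroblast feeder cells, Dcn, Lum and Postn were at or below that percentile on all 6 arrays. The highest value among the 8 was 8.80, in Thy1. Their mean was 5.01 to 5.09 in Empty and 5.08 to 5.33 in the constructs. The Empty arrays carry title numbers between 1 and 10 and the construct arrays numbers from 15 to 20. The labels do not say what these numbers mean, so whatever separates the 2 runs and the presence of a construct cannot be told apart. In bulk RNA, fewer cells of a type and less RNA per cell cannot be told apart either.

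Mbd3, the gene removed and put back, was lowest in Empty. Its log2 signal with LIF was 7.00 in Empty, 9.12 in deltaCC and 8.48 in deltaMBD&CC. Without LIF it was 7.45, 9.02 and 8.45 in the same order. All 4 construct arrays therefore lay above both Empty arrays, and deltaCC lay as high as EBRTcH3 (9.10 with LIF, 9.17 without). Constructs minus Empty, over both conditions, the difference was 1.54 ± 0.22 log2 (SE, 4 against 2 arrays; 2.91-fold), but it did not pass the limma test over all genes (adjusted p = 0.230). The deltaCC line alone lay 1.84 above Empty (adjusted p = 0.0668) and deltaMBD&CC 1.24 above it (adjusted p = 0.165). With the deltaCC array grown without LIF left out, deltaCC minus Empty for Mbd3 was 2.00 with an adjusted p of 0.0106. The part of the transcript that the probe set reads is not known here.

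Beyond Mbd3, almost no gene separated the constructs from Empty. With condition as a block, 1 of 22872 genes passed an adjusted p under 0.05 (0.00437%), with 0 higher and 1 lower in the constructs. An unadjusted p under 0.05 was reached by 1668 genes (7.29%), of which 987 were higher (4.32%) and 681 lower (2.98%). Of the 1668, 59.2% were higher, and this was 46.8% after quantile normalization. At least 2-fold differences were found in 18 genes (0.0787%), 8 higher (0.035%) and 10 lower (0.0437%). The gene that passed was Gm4349, a transcribed pseudogene of chromosome 3 that falls outside the rule for named genes and was picked out after its value was seen. With LIF its log2 signal was 6.81 in Empty, 5.26 in deltaCC and 5.35 in deltaMBD&CC. Without LIF it was 6.91, 5.71 and 5.40, so that it fell by 1.43 ± 0.13 (SE, adjusted p = 0.0397, limma). Gm4349 passed in 7 of 18 alternatives, and its adjusted p over these ran from 0.00891 to 0.979. With the run of titles as a covariate the difference of Gm4349 was -0.57. Of the lines that have the coiled coil, MBD3a lay at 5.73 with LIF and 6.58 without, and EBRTcH3 at 5.38 and 5.28. MBD3b and MBD3c lay at 6.74 and 6.54 with LIF and at 5.19 and 5.82 without. deltaMBD, whose titles are in the same run as the constructs, lay at 5.46 with LIF and 4.63 without, near or below the constructs.

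The precision sets how small a shared difference could have been seen. The median SE of a difference was 0.13 log2, and the median half-width of its 95% interval was 0.29. For 22567 genes (98.7%) that interval lay wholly inside 1 log2 unit on either side of 0, so a shared difference of 2-fold or more lay outside it. The interval holds only the spread between these arrays, so it cannot exclude a difference masked by the line or the run of titles. With the run as a covariate, over 16 arrays, 124 genes were at least 2-fold apart, against 18. Within a condition, where 1 Empty array stands against 2 construct arrays and is assumed to vary like them, the share was 92.1% with LIF and 96.5% without.

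To set a scale, and after the data had been seen, the same design was run with MBD3a and deltaMBD in place of the construct lines, so that 1 line came from each run of titles. It uses the same 2 Empty arrays. This comparison called 258 genes (1.13%), 127 higher and 131 lower than Empty, with 385 genes at least 2-fold apart. Between single arrays the same order was seen. With LIF, 202 genes lay at least 2-fold apart between Empty and deltaCC, 286 between Empty and deltaMBD&CC and 114 between the construct lines, against 557 between Empty and MBD3a. Without LIF the counts were 86, 81 and 53, against 1140 between Empty and MBD3a. The construct lines stood no nearer to MBD3a than Empty did with LIF (782 genes for deltaCC, 884 for deltaMBD&CC). Without LIF deltaCC was 984 genes and deltaMBD&CC 1150 genes away from MBD3a. These are counts between 1 array and 1 array, with no replicate check.

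**Figure D1:**
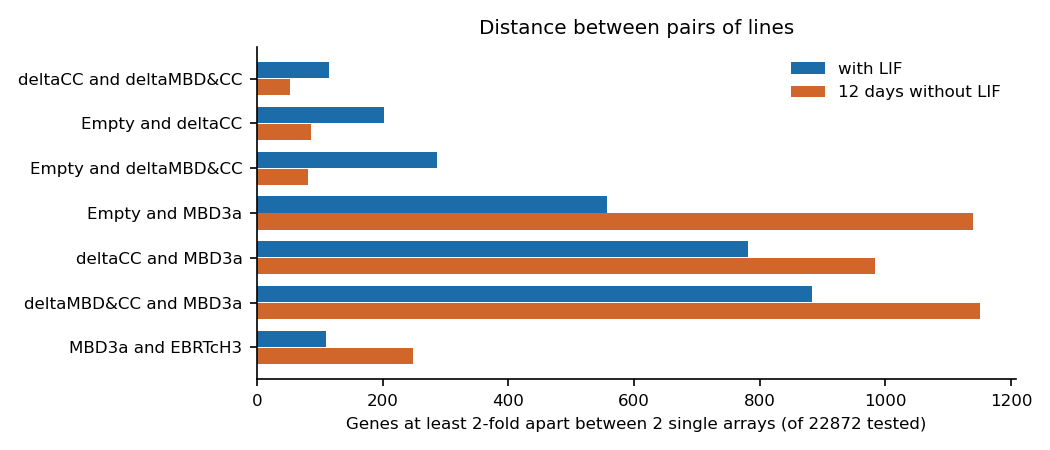
Number of the 22872 tested genes at least 2-fold apart between 2 single arrays (horizontal axis), for 7 pairs of lines with LIF (blue) and after 12 days without LIF (orange). The 3 pairs among Empty, deltaCC and deltaMBD&CC have the shortest bars without LIF (53 to 86 genes), and the 3 pairs that set one of these lines against MBD3a have the longest (984 to 1150).

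Both construct lines lay on the same side of Empty in 16610 genes with LIF (72.6%) and in 15135 without (66.2%). With LIF 10893 were above (47.6%) and 5717 below (25.0%). Without LIF 6746 were above (29.5%) and 8389 below (36.7%). In both conditions at once, 3250 genes lay above Empty (14.2%) and 2227 below (9.74%). A further 5394 genes (23.6%) were on one side with LIF and on the other without. Both construct lines are set against 1 Empty array in each condition, so an offset of that array moves every gene to the same side. In the same way, noise of that array in a single gene puts both lines on one side for that gene. Such noise alone gives high shares, so these shares do not show a shared effect of the constructs. Across genes, the differences with and without LIF, which use different arrays of the same lines, had a correlation of 0.116; genes are not independent replicates.

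None of the 12 genes named on each side passed, and all are described by their values. By the rule that chose them, the first 12 lay above Empty in all 4 construct arrays. Krt8, a keratin of simple epithelia, was 7.88 in Empty, 8.48 in deltaCC and 8.67 in deltaMBD&CC with LIF. Without LIF it was 8.91, 9.75 and 9.43. Its construct arrays lay above the Empty array of the same condition by 0.52 to 0.84, a difference of 0.69 ± 0.13 (SE, adjusted p = 0.388). Zfp36l3, a placental member of the tristetraprolin family of mRNA-binding proteins, was 3.86, 5.16 and 5.06 with LIF and 4.77, 5.26 and 5.20 without, in the same order (0.85, adjusted p = 0.396). In the MBD3a line Krt8 reached 11.83 and Zfp36l3 8.27 after LIF withdrawal, so the construct lines stayed far below it. With LIF the MBD3a line had 7.50 for Krt8, below Empty, and 4.74 for Zfp36l3, between Empty and the constructs. Vgll3, a cofactor of TEAD transcription factors, was 4.16, 4.95 and 4.88 with LIF and 5.15, 5.69 and 6.02 without (0.73, adjusted p = 0.372), against 8.90 in MBD3a without LIF.

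Pla2g4a, the cytosolic phospholipase that releases arachidonic acid, had the largest difference after Mbd3 among the 12 named genes on this side; genes outside the 12 had larger ones, such as the small RNA gene Gm24598 (1.52). It was 4.17 in Empty, 5.26 in deltaCC and 4.96 in deltaMBD&CC with LIF, and 4.72, 5.96 and 5.37 without (0.94 ± 0.17, adjusted p = 0.372). Among the 12, the smallest p-values beside Mbd3 belonged to Tmem252 and Efhc2. Tmem252 was 5.24, 5.96 and 5.97 with LIF and 5.43, 6.20 and 6.18 without, a difference of 0.74 ± 0.11 (adjusted p = 0.230). Its 4 construct arrays exceeded Empty by nearly the same amount, which a choice by smallest p favours. MBD3a, at 5.88 and 6.08, had the level of the constructs. The other genes on this side were Ly6g, Serpinb1c, Pm20d2, Wfdc15a and Kirrel3os, with differences from 0.57 to 0.77.

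Tsix had the smallest p among named genes below Empty. This X-linked noncoding RNA is the antisense partner of Xist and represses it. With LIF its signal was 8.49 in Empty, 7.27 in deltaCC and 7.40 in deltaMBD&CC. Without LIF it was 8.12, 6.98 and 6.54, so all 4 construct arrays lay below both Empty arrays. The difference was -1.26 ± 0.15 (SE, adjusted p = 0.0841). Tsix passed when the deltaCC line was left out (-1.34, adjusted p = 0.048) and with the line as a random block (adjusted p = 0.0236). The random block had a negative consensus correlation (-0.315), with 3112 genes at an unadjusted p under 0.05, against 1668 without it. It was thus the less strict fit. Over 18 alternatives the adjusted p of Tsix reached 0.979. The other lines spread widely with LIF, from 7.44 in EBRTcH3 and 7.84 in MBD3a to 8.57 in deltaMBD, 9.36 in MBD3c and 9.49 in MBD3b. Without LIF those 5 lines ran from 6.17 to 6.70, and Empty, at 8.12, lay above every other line.

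Neat1, the noncoding RNA that forms paraspeckles, was 8.32 in Empty, 7.79 in deltaCC and 7.78 in deltaMBD&CC with LIF, and 8.47, 7.84 and 7.55 without (-0.66, adjusted p = 0.396). With the run of titles as a covariate its difference was 0.02. Slc6a9, a glycine transporter, was 9.14, 7.79 and 8.29 with LIF and 7.85, 7.36 and 7.27 without (-0.82, adjusted p = 0.405). Fas, a death receptor and p53 target, was 10.96, 10.35 and 10.06 with LIF and 10.61, 10.26 and 10.17 without (-0.57, adjusted p = 0.466). Rpl17-ps9, a pseudogene of a ribosomal protein gene whose probes may read its parent, was 9.32, 8.38 and 7.64 with LIF and 8.68, 7.17 and 8.07 without (-1.19 ± 0.27, adjusted p = 0.414). Tex13b, Uevld, Cnpy1, Il18bp, Dync1li1, Krtdap and Igfals had differences from -0.51 to -0.78.

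**Figure D2:**
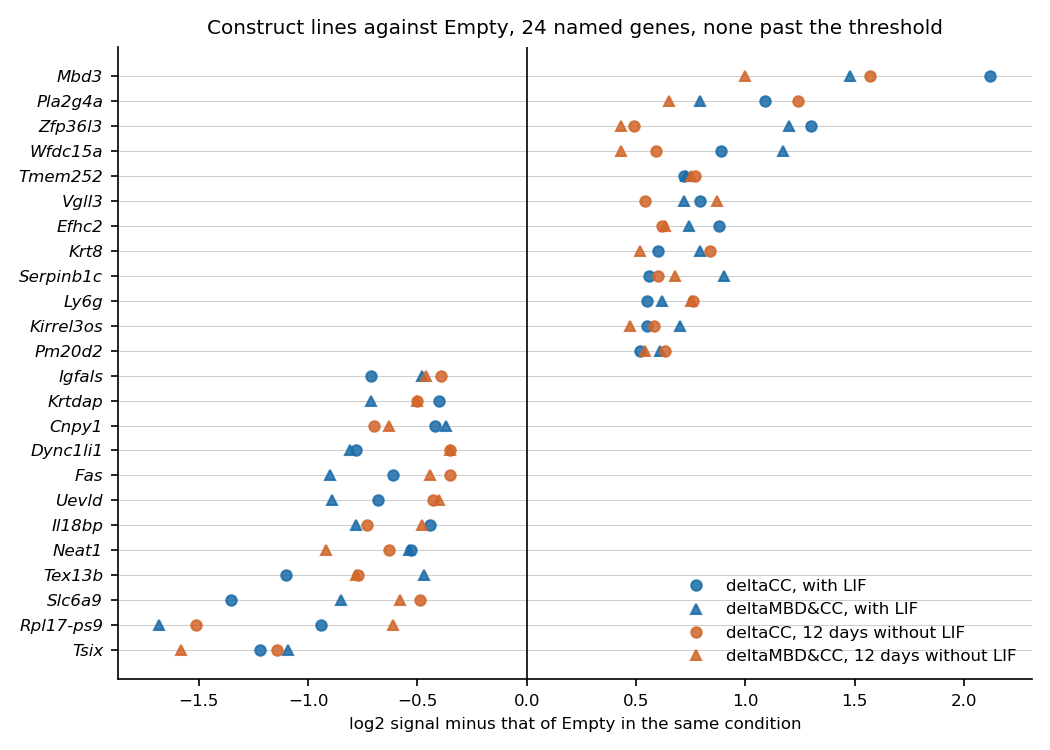
Log2 signal of deltaCC (circles) and deltaMBD&CC (triangles) minus that of Empty in the same condition (horizontal axis), with LIF (blue) and without (orange), for the 24 named genes; each point is 1 array minus 1 array. Mbd3 lies farthest right, between 1.00 and 2.12, and Tsix farthest left on average, between -1.09 and -1.58; none of the 24 passed the threshold.

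With LIF, genes of the ATF4 and CHOP stress response lay lower in the constructs than in Empty. ATF4 is the transcription factor induced when cells sense amino acid shortage or misfolded protein, and CHOP (Ddit3) is its partner; their targets import or make amino acids and glutathione or temper the response. Of 18 listed genes, all tested, 0 passed in either direction, and 10 had an unadjusted p under 0.05 with LIF, all lower. Over all genes 5.05% were lower at that level and 14.1% differed in either direction. The median difference with LIF was -0.73 in the list and 0.09 over all genes. Both construct lines lay below Empty in 17 of the 18 genes, against 25.0% of all genes; the exception was Psat1, an enzyme of serine synthesis. Without LIF the median was -0.19, against -0.01 over all genes, and 0 of 18 had an unadjusted p under 0.05. The list was chosen with results of these data known.

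The promoters of 6 of the 15 listed genes in the RefSeq promoter table (GRCm38.p6) held the letters TGATGNAA on either strand within 250 bases before the start, the form of the composite element that ATF4 binds with C/EBP partners. The same letters occurred in 3.91% of 27025 genes and in 3.45% of 32851 promoters. The list was made of genes of the ATF4 and CHOP response, so a higher share follows from its choice. It says nothing about the differences on these arrays. The genes were Atf3, Chac1, Slc7a11, Asns, Nupr1 and Vldlr. Stretches of 60 bases are given for 4 of them, since their values carry the pattern. They are the 4 in which the mean of the 2 construct lines lay at least 1 log2 unit below Empty with LIF. The capitals mark the match, which is a description of letters and not a bound site.
Chac1, chr2:119351023-119351082, plus strand: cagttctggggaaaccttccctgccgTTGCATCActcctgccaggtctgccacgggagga
Vldlr, chr19:27216794-27216853, plus strand: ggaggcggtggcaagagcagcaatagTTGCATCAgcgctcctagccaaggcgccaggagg
Nupr1, chr7:126625547-126625606, minus strand: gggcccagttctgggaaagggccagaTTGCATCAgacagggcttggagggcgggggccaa
Slc7a11, chr3:50443646-50443705, minus strand: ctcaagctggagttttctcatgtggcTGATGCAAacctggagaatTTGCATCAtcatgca
Slc7a11 held 2 matches and the others 1 each. The first base of the match farthest from the start lay 193 bases before it in Chac1, 200 in Vldlr, 110 in Nupr1 and 66 in Slc7a11.

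Chac1, a glutathione-degrading enzyme and one of the most responsive CHOP targets, showed the pattern most plainly. With LIF its log2 signal was 9.27 in Empty, 7.09 in deltaCC and 7.78 in deltaMBD&CC. The 5 lines with a coiled coil lay between 8.42 and 9.22, so that Empty was with them and the construct lines below all 6. Without LIF Empty was 6.62, deltaCC 6.01 and deltaMBD&CC 6.53. The difference with LIF was -1.83 (adjusted p = 0.206). Vldlr, a lipoprotein receptor, was 7.27, 5.28 and 5.82 with LIF, against 7.74 to 8.02 in the coiled-coil lines, and 5.44, 5.12 and 5.02 without. Its difference with LIF was -1.72 ± 0.23 (SE, adjusted p = 0.181), and Vldlr is among the 4 named for the smallest p-values of that side. Ddit3 itself was 9.10, 7.60 and 8.14 with LIF and 7.44, 7.30 and 7.02 without. Aldh1l2, a mitochondrial folate enzyme, was 7.50, 5.63 and 6.46 with LIF and 5.71, 5.50 and 5.38 without.

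Nupr1, a small chromatin protein induced by stress, was picked from the list after its values were seen, as were Ddit3, Slc7a11, Atf4 and Asns. It was 10.63 in Empty, 9.25 in deltaCC and 9.74 in deltaMBD&CC with LIF, and 9.13, 8.68 and 8.71 without (-0.78 ± 0.19 over both, adjusted p = 0.466). Slc7a11, the cystine importer, was 6.99, 5.80 and 6.06 with LIF and 5.55, 5.32 and 5.63 without. Atf4 differed less: 10.03, 9.50 and 9.94 with LIF and 9.46, 9.41 and 9.16 without. Asns, which makes asparagine, was 12.40, 12.10 and 12.37 with LIF. Averaged over the 18 genes, the level with LIF was 9.52 in Empty, 8.51 in deltaCC and 8.97 in deltaMBD&CC, and 9.62 to 9.76 in the 5 coiled-coil lines. deltaMBD, whose titles are in the same run as the constructs, had 9.76. Without LIF the means were 8.45, 8.30 and 8.23, against 8.30 to 8.79. The difference between conditions, tested as an interaction, had a median of 0.51 in the list, against -0.10 over all genes, and passed in 0 of 18 genes. Of these 8 had an unadjusted p under 0.05, against 7.59% of all genes. Inhbe, an activin-family subunit outside the list that also responds to ATF4, was 8.49, 5.89 and 7.25 with LIF and 6.43, 5.51 and 6.07 without.

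**Figure D3:**
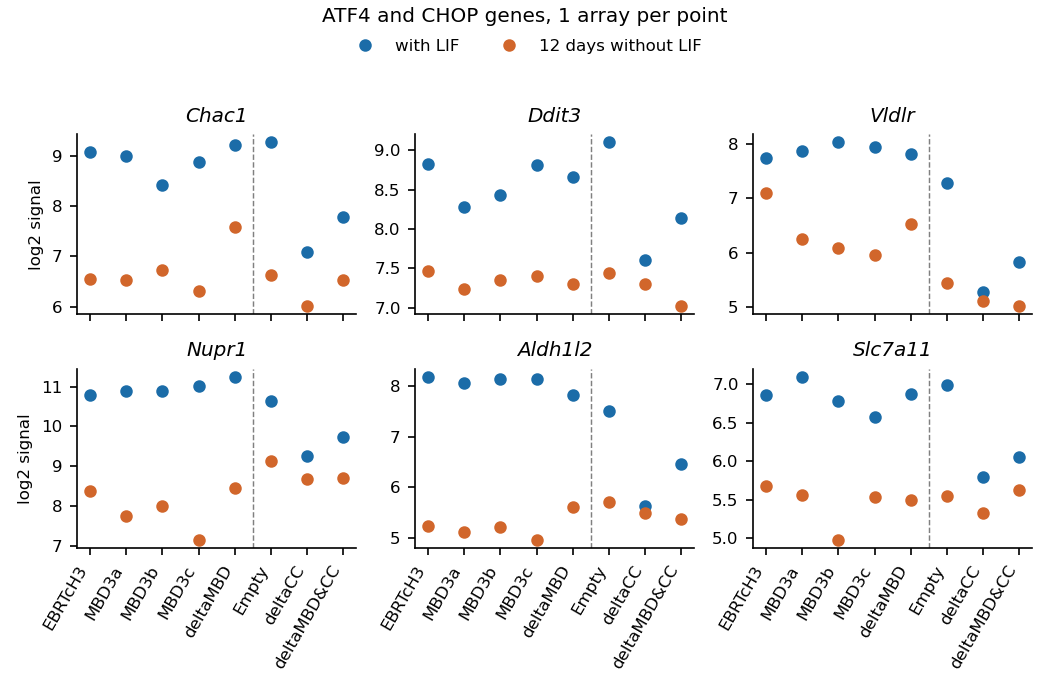
Log2 signal (vertical axes, a separate scale for each gene) of 6 ATF4 and CHOP genes in all 8 lines, with LIF (blue) and after 12 days without it (orange), 1 array per point; the dashed line separates the 5 lines with a coiled coil from the 3 without. With LIF the deltaCC and deltaMBD&CC points lie below Empty in all 6 genes, as for Chac1 at 7.09 and 7.78 against 9.27.

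With LIF alone, 0 of 22872 genes passed (smallest adjusted p = 0.181), 3220 had an unadjusted p under 0.05 (14.1%; 9.02% higher and 5.05% lower), and 129 differed at least 2-fold (0.564%). Of these 58 were higher (0.254%) and 71 lower (0.31%). Of genes with an unadjusted p under 0.05, 64.1% were higher in the constructs; this was 46.6% after the arrays were shifted to a common median and 45.9% after quantile normalization. The named genes kept their direction under both. Glrx, a glutaredoxin, was 5.93 in Empty, 7.58 in deltaCC and 7.56 in deltaMBD&CC (1.64 ± 0.18, adjusted p = 0.181). Foxc1, a forkhead factor of mesoderm and neural crest, was 3.59, 5.12 and 4.93. All 5 coiled-coil lines had 5.02 to 5.13, so that Empty stood below every other line, and Foxc1 passed with all 16 arrays in the fit (1.44, adjusted p = 0.00451). Steap3, an iron reductase of endosomes, was 6.86, 8.38 and 8.09 with LIF. Arl14ep was 10.57, 9.16 and 9.32, and Yes1, a Src-family kinase active in ESCs, 10.37, 9.26 and 9.29. For Arl14ep and Yes1 the coiled-coil lines ran from 10.12 to 10.62 and from 9.93 to 10.44 with LIF. After withdrawal all 8 lines lay between 8.77 and 9.40 for Arl14ep and between 8.35 and 8.92 for Yes1.

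Arl14ep and Yes1, low in the constructs with LIF, had lower signals after LIF withdrawal in all 8 lines, which led, after the values were seen, to a description of all genes that moved with LIF in EBRTcH3. Its 2 arrays enter none of the differences from Empty. Of 581 genes at least 2-fold lower without LIF in EBRTcH3, both construct lines lay below Empty with LIF in 354 (60.9%) and above it in 100. Of 1069 genes at least 2-fold higher without LIF, both lay above Empty in 663 (62.0%) and below it in 160. Over all genes the shares were 25.0% below and 47.6% above. The median difference was -0.21 in the first set and 0.21 in the second, against 0.09 over all genes, so most of these shifts were small. Without LIF the medians were 0.01 and 0.04. Across all tested genes, the response of EBRTcH3 had a correlation of 0.311 with constructs minus Empty with LIF and of 0.0221 without. The construct lines gave 0.32 (deltaCC) and 0.244 (deltaMBD&CC) with LIF; both share the 1 Empty array, and the part of that array in the result was not tested.

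Without LIF, 0 genes passed (smallest adjusted p = 0.195), 830 had an unadjusted p under 0.05 (3.63%), 379 higher (1.66%) and 451 lower (1.97%), and 59 differed at least 2-fold (0.258%). Of the 830, 45.7% were higher, and this was 60.3% after the arrays were shifted to a common median and 50.8% after quantile normalization. Nrsn1, a neuronal vesicle protein gene, was 3.70 in Empty, 5.03 in deltaCC and 4.96 in deltaMBD&CC (1.29 ± 0.15, adjusted p = 0.195). It was 4.68, 5.05 and 4.96 with LIF, so the Empty array without LIF was the low one. Ecrg4 was 3.57, 4.78 and 4.78, and Lrrk2, a kinase known from Parkinson's disease, 4.30, 5.31 and 5.30. Flrt2, a cell adhesion and guidance molecule, was 4.00, 4.89 and 5.04, against 5.60 in MBD3a. On the lower side Fam217b was 5.76, 4.80 and 4.70, Cd70, the ligand of CD27, 5.11, 4.35 and 4.15, and Hoxb3os 4.56, 3.74 and 3.85. Most of these signals lie close to the 40th percentile of the array. Tsix completed the 4 on that side (-1.36, adjusted p = 0.217).

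The difference between conditions was tested directly as an interaction. It passed in 0 genes (smallest adjusted p = 0.590), with 1735 genes at an unadjusted p under 0.05 (7.59%) and 243 at least 2-fold (1.06%). Of the 1735, 35.7% were higher, and this was 63.5% after the shift to a common median and 56.7% after quantile normalization. The median over all genes was -0.10, and it was 0.01 after the arrays were shifted to a common median. Among genes the naming rule covers, the smallest p-values on each side belonged to genes already seen with LIF (Arl14ep, Zfp119a, Steap3, Glrx and Foxc1) and to Ahnak2, Rgs20 and Spem2. Steap3 went from 6.86 with LIF to 8.18 without it in Empty, while deltaCC went from 8.38 to 7.58 and deltaMBD&CC from 8.09 to 7.64, a difference in response of -1.95 ± 0.25 (SE, adjusted p = 0.590). Ahnak2 went from 7.21 to 6.75 in Empty, from 6.20 to 7.02 in deltaCC and from 6.06 to 7.28 in deltaMBD&CC.

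Genes of the 2-cell-like state, a rare and transient state of ESC cultures marked by the Zscan4 cluster, differed between the conditions and between the construct lines. Zscan4f with LIF was 3.07 in Empty, 7.20 in deltaCC and 4.35 in deltaMBD&CC, against 5.56 to 6.09 in the coiled-coil lines. Without LIF it was 6.50, 5.98 and 6.05, against 5.76 to 8.00. Constructs minus Empty was 1.11 ± 0.80 (SE, adjusted p = 0.789). The mean over the 10 tested genes of the list with LIF was 4.23 in Empty, 6.10 in deltaCC and 4.82 in deltaMBD&CC, so Empty was the lowest line and deltaCC the highest. The coiled-coil lines had 5.26 to 5.58. Of the 10 genes 0 passed. With LIF 6 had an unadjusted p under 0.05, all higher, against 9.02% of all genes higher at that level; without LIF 0 did, against 3.63% in either direction. The median difference was 0.99 with LIF and -0.28 without, against 0.09 and -0.01 over all genes. The Zscan4 genes are near-identical copies, so their probe sets may read each other and are not separate evidence.

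**Figure D4:**
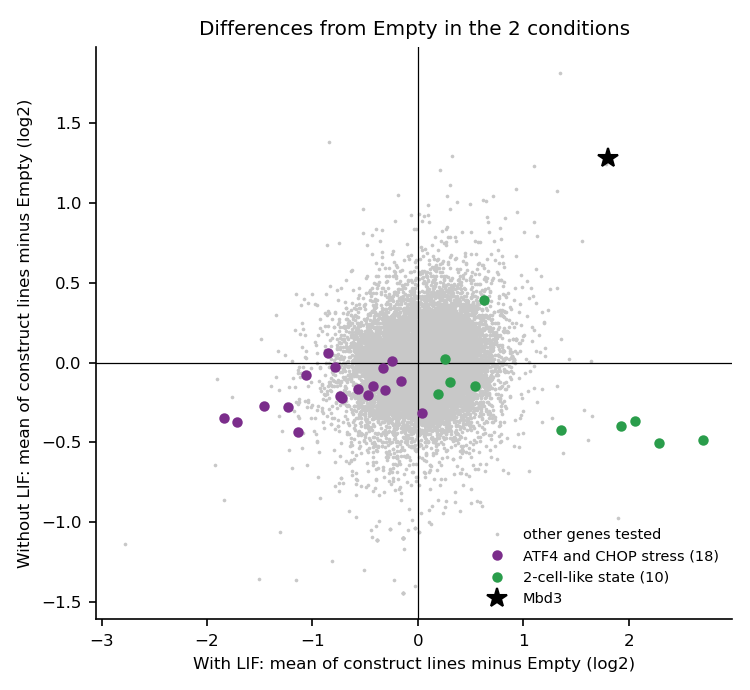
Constructs minus Empty with LIF (horizontal axis) against the same without LIF (vertical axis), in log2, 1 point per tested gene. The 18 ATF4 and CHOP genes (purple) lie to the left with LIF (median -0.73) and near 0 without (median -0.19), the 10 genes of the 2-cell-like state (green) to the right with LIF (median 0.99) and below 0 without (median -0.28), and Mbd3 (star) is high in both (1.80 and 1.29).

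Each construct line alone gave 0 genes past the threshold against Empty. For deltaCC, an unadjusted p under 0.05 was reached by 1582 genes (6.92%) and a 2-fold difference by 31 (0.136%). For deltaMBD&CC the counts were 1308 (5.72%) and 17 (0.0743%). Among genes the naming rule covers, the smallest p-values for deltaCC after Mbd3 and Pla2g4a belonged to Anxa1, an annexin, at 6.13 and 6.81 against 4.82 and 5.92 in Empty (with and without LIF; 1.10, adjusted p = 0.262), and Lrrn1 (1.06). On the lower side stood Tsix, Pomc, a hormone precursor gene (-1.14), Sult6b1 (-1.06) and Inhbe (-1.76, adjusted p = 0.317). For deltaMBD&CC, Btbd35f13 was 4.97 and 4.92 against 2.84 and 3.57 in Empty (1.74, adjusted p = 0.165); it belongs to a family of close copies on the X chromosome. Dio3, the imprinted gene of a thyroid hormone deiodinase, was 5.66 and 5.82 against 4.52 and 5.06 (0.95, adjusted p = 0.397), and Nmbr, the neuromedin B receptor, 4.26 and 4.62 against 3.45 and 3.65. Prtg, Lrrc30 and the histone gene H2ac1 were lower by 0.79 to 0.93.

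The construct lines differ from each other by the methyl-CpG-binding domain, and 0 genes passed between them (smallest adjusted p = 0.378). In all, 837 genes had an unadjusted p under 0.05 (3.66%) and 21 were at least 2-fold apart (0.0918%), a number between those of the lines against Empty (17 and 31). For 98.7% of genes the 95% interval of the difference lay inside 1 log2 unit on either side of 0. Ccr7, a chemokine receptor, was 5.37 and 5.19 in deltaCC and 6.27 and 6.35 in deltaMBD&CC, with Empty at 5.95 and 5.84 (1.03, adjusted p = 0.439). Apool, a gene of the mitochondrial inner membrane, was 6.68 and 6.76 in deltaCC and 5.74 and 5.64 in deltaMBD&CC, where Empty had 5.87 and 6.01 (-1.03, adjusted p = 0.439). Pramel19 (-1.30), from a family of near-identical copies, and the transcription factor Maf (-1.19) were also lower in deltaMBD&CC. The pseudogene Ncr3-ps was 0.90 higher in deltaMBD&CC (adjusted p = 0.807), Rabgap1l 0.75 and Zfp455 0.76 higher, and Pramel49 0.85 lower. Mbd3 itself was 0.60 lower in deltaMBD&CC (adjusted p = 0.994).

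Genes of other lineages and states were described by lists, none of which held a gene that passed. The median of constructs minus Empty over all genes was 0.03. It was 0.05 over 27 pluripotency genes, where Fgf4, the growth factor that primes ESCs for commitment, was 0.33 above Empty. Over 13 LIF and STAT3 targets it was 0.01, with Myc 0.45 above Empty. It was 0.19 over 24 genes of mesenchyme and extracellular matrix, 21 of which lay above Empty (56.9% of all genes did) and 7 with an unadjusted p under 0.05, all higher (4.32% of all genes). Tagln, an actin-binding protein of smooth muscle, was 5.71, 6.29 and 6.24 with LIF and 6.72, 7.81 and 6.99 without (0.62, adjusted p = 0.597). MBD3a reached 10.12 without LIF but had 5.17 with it, below Empty. Thbs1 (0.54) and Snai2 (0.55) were the next. Of the 8 feeder markers, Dcn, Lum and Postn were near background, while Thy1 ran from 8.10 to 8.80 and Col1a1 from 6.58 to 6.89. The list of feeder genes had a median of 0.14 over 6 tested genes, and all 6 lay above Empty.

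Of 22 trophectoderm genes, 13 lay above Empty and 9 below, where 56.9% of all genes lay above. An unadjusted p under 0.05 was reached by 7, all higher (4.32% of all genes were higher at that level), and the median was 0.09. Elf5, a trophoblast factor, was 5.00 in Empty, 4.87 in deltaCC and 4.90 in deltaMBD&CC with LIF. Without LIF it was 6.46, 6.08 and 6.18, so it lay below Empty in both conditions. Krt18, the keratin that pairs with Krt8, was 8.05 in Empty, 8.55 in deltaCC and 9.14 in deltaMBD&CC with LIF and 8.89, 9.69 and 9.42 without (0.73 ± 0.17, adjusted p = 0.458). Plac1, a placental surface protein, was 4.25, 5.01 and 4.73 and then 5.12, 5.62 and 5.47 (0.52). In MBD3a without LIF Krt18 was 12.36 and Plac1 7.14. With LIF MBD3a had 7.25 for Krt18 and 3.92 for Plac1, both below Empty. Igf2, an imprinted growth factor, was 7.21, 8.20 and 8.14 with LIF and 8.99, 9.38 and 9.23 without (0.64, adjusted p = 0.466). In MBD3a it was 12.50 without LIF, far above these lines, and 6.29 with LIF, below Empty. The list of imprinted genes had a median of 0.01 over 18 tested genes, among them Nckap1, which is not known to be imprinted. After Igf2 the largest differences in it were those of Ndn (0.55) and Usp29 (0.38).

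The 18 genes of primitive endoderm had a median of 0.14, with 5 higher and 1 lower at an unadjusted p under 0.05 (4.32% and 2.98% of all genes). Cited1 was 0.47 and Sparc, a matrix protein, 0.38 above Empty, and Sox7, an endoderm factor, 0.36 below it. Gastrulation mesoderm (17 genes), neuroectoderm (16), primed epiblast (16), germline (21) and interferon-inducible genes (15) had medians between 0.06 and 0.14. Among them Lhx1 was 0.48, Foxd3 0.42, Hormad2 0.66 and Tex15 0.61 above Empty, and Sycp3, a component of the meiotic chromosome axis, 0.56 below it. Over 19 genes of the MBD family and NuRD, Mbd3 itself among them, the median was 0.01. After Mbd3 the largest differences were those of the remodellers Chd3 (-0.28) and Chd5 (-0.26). The remodeller Chd4 was not among the 19, so its level is not given here. The 9 genes listed as DNA methylation enzymes, among them the RNA-editing enzyme Apobec1, had a median of -0.09. The 20 cell cycle genes had -0.05 and the 16 p53 targets 0.06. The list of glycolysis and hypoxia genes had 0.03 over 18 tested genes, among them Pigq, which is not a glycolytic gene. In that last list Vegfa, the angiogenic growth factor, was 9.01, 8.26 and 8.75 with LIF and 8.32, 7.95 and 7.88 without (-0.46, adjusted p = 0.597).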

How the data were processed

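Total RNA from mouse ESC lines was labelled and hybridized to Affymetrix arrays, 1 per line and condition. The deposited values are log2 signals per probe set from the authors; the submitters' processing notes name RMA and affy, with no version. No array has a replicate of its own line and condition.

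Of 65770 probe sets, 27 without values were left out and the 30439 with a single gene symbol were used (2146 had several, 33158 none). Symbols were updated through Entrez identifiers (22650 matched, 827 changed; table of assembly GRCm38.p6). The probe set with the highest mean signal stood for a gene (30102 genes), and 22872 genes above the array's 40th percentile on at least 3 of the 16 arrays were tested.

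limma 3.58.1 in R 4.3.3 was fitted to the 6 arrays with moderated variances (3 residual degrees of freedom) and p-values adjusted by Benjamini-Hochberg over every gene tested. Constructs minus Empty had the condition as a block. The single conditions and their difference came from a model of class by condition (2 residual degrees of freedom), and the single lines from a model of line plus condition. The fits were tested on simulated data. Promoter sequences are RefSeq's (GRCm38.p6), searched on both strands. Array number and signal over background limit the precision.

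The named genes are Mbd3, the 12 same-side genes with the smallest p on each side where fewer than 12 passed, the 4 smallest p-values on each side of the other comparisons, and up to 3 members of each of the 20 lists with the largest difference. The text describes some of these. Predicted genes, microRNAs, snoRNAs, olfactory and vomeronasal receptor genes, and immunoglobulin and T cell receptor segments are counted, with exceptions marked where they occur. The members, lists and tests were chosen with earlier results of these data known. Alternatives covered the filter, the probe set rule, array scaling, the variance prior, all 16 arrays in the fit, the run of titles, the line as a block, and each array or construct line left out.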

Additional observations from a re-analysis of the deposited data

Results flagged for a closer look

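Of the genes named over both conditions, 5 had both construct lines on one side of Empty with LIF and on the other side without. The difference between the conditions was tested as an interaction in limma and passed for none of the 5. Zscan4f, of the 2-cell-like cluster, was 2.71 above Empty with LIF and 0.48 below it without, a change of -3.19 (adjusted p = 0.649). Its close copies Zscan4b and Zscan4e changed by -2.79 (adjusted p = 0.649) and -2.42 (adjusted p = 0.651), and the 3 may share probes. In all 3 the Empty array with LIF was the lowest of the 6 arrays compared. Mki67, a proliferation marker, was -0.64 with LIF and 0.07 without, a change of 0.71 (adjusted p = 0.667); deltaMBD&CC with LIF, at 10.22, was the lowest of the 6. Eif2s3y, a Y-linked translation factor gene, was 0.07 above Empty with LIF and 0.43 below it without, a change of -0.51 (adjusted p = 0.649).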

How the results depend on the processing

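Constructs minus Empty, 1 gene in the report, gave 0 genes with no filter, arrays shifted to a common median, quantile normalization, all 16 arrays, the run of titles as a covariate, and without the deltaMBD&CC line. It gave 6 with the line as a random block (3 higher, 3 lower, consensus correlation -0.315), 7 without the deltaCC line (5 higher, 2 lower), 258 with MBD3a and deltaMBD in place of the constructs, an alternative added after seeing the data, and 0 to 1 with 1 array left out; the 1 was kept without the deltaCC array grown without LIF. With all 16 arrays, constructs minus Empty with LIF gave 2 (Foxc1 1.44; Prrg1 1.66, adjusted p = 0.0133), and with the run of titles, constructs minus Empty without LIF gave 1 (Ptch1, -2.08). Foxc1 aside, these were picked out after their values were seen. deltaCC minus Empty gave 1, Mbd3, with a trended prior, a robust prior and all 16 arrays, and 0 to 10 with 1 array left out; the 10, without deltaCC without LIF, were 6 higher, 5 of them Zscan4 copies and 1 Mbd3, and 4 lower. With 1 array left out, deltaMBD&CC minus Empty gave 0 to 7 (7 without either deltaCC array) and the difference between the constructs 0 to 5 (5 without deltaCC without LIF). With 1 array left out, constructs minus Empty with LIF, without LIF and the LIF response stayed at 0; the first could not be fitted without Empty with LIF, the second without Empty without LIF, and the third without either. With the line as a fixed replicate block, a pairing given by the labels, the LIF response gave 0 genes (smallest adjusted p = 0.733, 1287 at an unadjusted p under 0.05) and the block changed no call. Named genes reversed with the run of titles: Neat1 0.0238, Tet2 0.0825, Mki67 0.0875, Sry 0.32. Dnmt3b was -0.01 without the deltaCC line. With 1 array left out, ranges that crossed 0 were Pdgfrb -0.04 to 0.55, Zscan4f -0.48 to 2.71, Zscan4b -0.51 to 2.29, Zscan4e -0.36 to 2.06, Sesn1 -0.005 to 0.66, Cdkn1b -0.73 to 0.15, Mki67 -0.64 to 0.07, Isg15 -0.93 to 0.11 and Eif2s3y -0.43 to 0.075, each at its ends without 1 of the Empty arrays. The causes were not tested. Of the other values of named genes, 2088 kept direction and side of the threshold, 12 passed it newly and 11, all of Gm4349, lost it. Of list medians 1623 moved by no more than the spread between the construct lines and 417 by more.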

Other observations

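The following values were picked out after they were seen, with no test beyond the fit over all genes. Inside Sfmbt2, a polycomb-related gene whose intron holds a large cluster of microRNA copies, 55 listed genes gave 34 distinct signals. Both construct lines lay below Empty in both conditions for 24 of the 34 (9.74% over all genes) and above it for 0 (14.2% over all genes). Without LIF 12 of the 34 were at least 2-fold lower, against 43 of all 22872 tested genes, a count that includes genes of this cluster. The median difference was -0.23 with LIF and -0.58 without, against 0.09 and -0.01 over all genes. Mir669j was 6.30 in Empty, 6.00 in deltaCC and 5.73 in deltaMBD&CC with LIF and 9.05, 7.92 and 7.99 without (adjusted p = 0.405). The host gene differed little: Sfmbt2 was 8.44, 8.61 and 8.14 with LIF and 10.30, 10.25 and 10.28 without. The array reads precursors and mature forms together, and neighbouring copies can share probes.

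The imprinted region from Dlk1 to Dio3, which holds many snoRNA and microRNA copies, went the other way. Of its 38 tested genes, both construct lines lay above Empty in both conditions for 14 (14.2% over all genes) and below it for 0 (9.74% over all genes). The median was 0.38 with LIF and 0.05 without, against 0.09 and -0.01 over all genes. The snoRNA gene Gm24564 was 4.69 in Empty, 6.40 in deltaCC and 6.09 in deltaMBD&CC with LIF and 4.70, 5.74 and 5.19 without, against 8.96 and 9.37 in EBRTcH3 (1.16, adjusted p = 0.372). AF357426 was 2.53, 3.29 and 3.97 with LIF and 2.03, 2.98 and 2.84 without, against 6.51 and 5.07 in EBRTcH3. On the X chromosome the small RNA gene Gm24598 was 3.56, 5.18 and 5.51 and then 3.52, 4.72 and 4.81, against 9.07 and 8.33 (1.52, adjusted p = 0.0648). In these 3 genes Empty was lower than the constructs and the constructs lower than EBRTcH3 in both conditions.

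The Y-linked genes Uty and Eif2s3y were far below EBRTcH3 in all 3 lines. Uty was 9.27 with LIF and 8.24 without in EBRTcH3, 4.22 and 5.28 in Empty, 4.17 and 4.75 in deltaCC and 4.05 and 4.63 in deltaMBD&CC. Eif2s3y was 9.48 and 8.78 in EBRTcH3, 5.42 and 6.13 in Empty and 5.45 to 5.72 in the construct lines. MBD3a, at 3.99 and 4.00 for Uty, was as low. Sry, the other tested gene of the Y-linked list, was not lower than in EBRTcH3. It was 6.74 with LIF and 6.96 without in EBRTcH3, 6.92 and 7.51 in Empty, 6.74 and 7.36 in deltaCC and 6.92 and 7.28 in deltaMBD&CC.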
